A study of Homo sapiens with 9 samples.

Results

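Fatty acid oxidation was followed through the transcripts of 37 genes, listed by name for their place in the pathway, out of 19317 genes in the deposited table. All 37 were found by symbol, and all 37 passed the filter on low counts. They cover the carnitine shuttle, mitochondrial and peroxisomal beta-oxidation, acyl-CoA thioesterases and ketone body enzymes. The cells were HepG2, an established line from a human hepatocellular carcinoma, with no engineered genotype in any group. The study set 2 models of steatosis, the build-up of fat in liver cells, against control cells, with 3 samples in each group. The DNL group, a model of de novo lipogenesis, spent 1 week in DMEM that held T0901317 at 10 µM, a compound that activates liver X receptors, together with insulin at 10 µg/ml. The OA group was kept for 6 hours in DMEM with 25 µM oleic acid, which was carried in 11% bovine serum albumin. The WT group was kept in RPMI without any of these agents. All media held 10% serum and 1% antibiotics. DNL differs from OA in agents and in time at once, and both differ from WT in the medium as well, so the effects of these factors cannot be told apart. The labels do not say whether the samples of a group came from separate cultures, and the p-values rest on the spread among these samples alone, which could be technical. No group received the albumin carrier alone, and all samples come from 1 cell line.

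Beta-oxidation shortens fatty acids step by step to acetyl-CoA. Long chains enter mitochondria as carnitine esters, and each cycle there runs through an acyl-CoA dehydrogenase, a hydratase, a second dehydrogenase and a thiolase, with electrons passed to the respiratory chain through the electron transfer flavoprotein. Peroxisomes shorten very long and branched chains, including the side chain of bile acid precursors, with their own oxidases and thiolases. In liver the acetyl-CoA can be turned into ketone bodies, and the nuclear receptor PPAR alpha is a known activator of many of these genes.

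Promoter sequences were available from RefSeq (GRCh38.p14) for 29 of the 37 genes, as 39 windows that run from 250 bases before to 50 bases after a transcript start. The 3 genes below are shown because their promoters bear on how the counts are read: HADHA and HADHB share one, SCP2 has a pair of starts that gene counts do not separate, and BDH1 had the lowest fold changes of all 37 genes against WT. In HADHB the capitals mark the 194 bases that also belong to the window of HADHA, which starts 306 bases away on the other strand. In SCP2 the capitals mark GGGCGG on either strand, and in BDH1 they mark AGGNCA on either strand.
HADHB, chr2:26244689-26244938, plus strand: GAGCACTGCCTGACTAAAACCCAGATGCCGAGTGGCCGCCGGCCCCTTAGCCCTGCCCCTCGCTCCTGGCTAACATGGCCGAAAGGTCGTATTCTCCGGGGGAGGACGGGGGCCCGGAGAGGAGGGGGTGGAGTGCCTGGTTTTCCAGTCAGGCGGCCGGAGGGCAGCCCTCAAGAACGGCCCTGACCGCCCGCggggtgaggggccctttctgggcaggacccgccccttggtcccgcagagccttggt
SCP2 upstream start, chr1:52927026-52927275, plus strand: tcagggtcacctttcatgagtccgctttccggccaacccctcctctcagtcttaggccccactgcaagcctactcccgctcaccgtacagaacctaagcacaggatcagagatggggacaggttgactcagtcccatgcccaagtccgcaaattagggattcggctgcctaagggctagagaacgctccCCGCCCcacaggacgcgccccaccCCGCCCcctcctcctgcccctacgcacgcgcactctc
SCP2 downstream start, chr1:53014687-53014936, plus strand: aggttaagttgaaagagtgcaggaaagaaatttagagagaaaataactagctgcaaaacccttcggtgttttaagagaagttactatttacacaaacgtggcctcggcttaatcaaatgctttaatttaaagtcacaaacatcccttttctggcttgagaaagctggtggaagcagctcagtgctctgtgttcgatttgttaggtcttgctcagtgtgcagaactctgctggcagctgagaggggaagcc
BDH1 upstream start, chr3:197573344-197573593, minus strand: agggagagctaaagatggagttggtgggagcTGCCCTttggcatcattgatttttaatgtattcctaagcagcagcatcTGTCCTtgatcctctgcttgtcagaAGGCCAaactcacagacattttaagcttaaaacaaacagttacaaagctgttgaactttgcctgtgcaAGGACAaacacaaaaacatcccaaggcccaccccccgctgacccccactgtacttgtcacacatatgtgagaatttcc
BDH1 downstream start, chr3:197555969-197556218, minus strand: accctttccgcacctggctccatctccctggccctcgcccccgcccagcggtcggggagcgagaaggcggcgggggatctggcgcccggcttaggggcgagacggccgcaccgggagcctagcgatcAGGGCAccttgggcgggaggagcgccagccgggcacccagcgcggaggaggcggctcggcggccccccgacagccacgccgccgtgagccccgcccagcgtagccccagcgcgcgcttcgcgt

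The element that PPAR alpha binds with its partner RXR is a direct repeat of AGGTCA spaced by 1 base. Searched on both strands, that repeat was in 0 of the 39 windows and in 0.0228% of 35116 windows of all genes. Its relaxed form, a repeat of AGGNCA with the same spacing, was also in 0 of the 39 and in 0.31% of all windows. The core AGGTCA alone was in 0 of the 39 windows, against 13.8% of all windows. AGGNCA, which includes AGGTCA, was in 18 of the 39 windows (16 genes) and in 53.2% of all windows. GGGCGG, the core of the GC box and a motif added after the other values were seen, was in 28 of the 39 windows (25 genes) and in 45% of all windows. These matches describe letters in short windows and say nothing about which factors bind there.

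Summed estimated counts lay between 16447398 and 36147431 in the DNL libraries, between 7836520 and 28636903 in the OA libraries and between 26425694 and 43043347 in the WT libraries. Levels are in CPM, the count of a gene relative to the size of its library, after TMM scaling for differences in composition, and replicates are given in the order 1, 2 and 3. Hepatocyte markers were present in all libraries, with 10 markers such as ALB and APOB summing to 79651, 77532 and 77618 CPM in DNL, 16316, 14855 and 14307 CPM in OA and 45328, 45217 and 43690.1 CPM in WT. In OA against WT 9 of these 10 fell and 0 rose, against 29.7% lower and 30.4% higher of all genes tested. For DNL against WT 8 rose and 1 fell, against 27.1% higher and 26.8% lower of all genes tested. Markers of stellate cells and fibroblasts were uneven in OA. All 6 of them summed to 91.9, 92.6 and 90.5 CPM in DNL, 85, 181 and 779 CPM in OA and 72.9, 77.0 and 71.0 CPM in WT, and COL1A1, a fibrillar collagen gene, had 0.647, 0.399 and 0.706 CPM in DNL, 19.3, 85 and 536 CPM in OA and 0.990, 0.948 and 0.622 CPM in WT. LUM, a further marker of this list, was at 0 in all DNL and WT libraries and in OA replicate 1. COL1A1 and COL3A1 rose in OA, but PDGFRB went the other way and fell in both models. It averaged 1.03 CPM in DNL, 4.77 CPM in OA and 9.92 CPM in WT. ACTA2 and DCN were not called in either model. ACTA2 alone averaged 88.4 CPM in DNL, 101 CPM in OA and 61.3 CPM in WT, most of the sums in DNL and WT. Macrophage markers summed to at most 53.4 CPM, with CD163 and MARCO at 0 in all libraries, and endothelial markers to at most 6.92 CPM, with STAB2 at 0. CD68 made up most of the macrophage sums and was called lower in DNL and not called in OA. CD14 averaged 6.25 CPM in DNL, 0.285 CPM in OA and 2.77 CPM in WT, called higher in DNL and lower in OA. PECAM1 and VWF, the 2 endothelial markers tested, were called higher in DNL and not called in OA. In RNA from bulk cultures, fewer cells of a type and less RNA per cell cannot be told apart. The part of these marker shifts in the results below was not tested. Without OA replicate 3, the counts of genes called in each role group were the same in both comparisons with WT, except that OXCT1 was not called in OA.

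Levels of different genes were compared per kilobase of transcript. ETFB, the smaller subunit of the electron transfer flavoprotein, had the highest level per kilobase, at 189 in DNL, 117 in OA and 139 in WT CPM per kilobase. The subunits of the mitochondrial trifunctional protein came next. HADHA had 93.1 in DNL, 87.7 in OA and 107 in WT, and HADHB had 99.7 in DNL, 89.2 in OA and 103 in WT CPM per kilobase. OXCT1, the enzyme that lets tissues outside the liver use ketone bodies, was the lowest in DNL and WT, at 0.844 in DNL, 1.98 in OA and 1.30 in WT CPM per kilobase. SLC22A5, the plasma membrane carnitine transporter, was next above it in those groups, at 1.35 in DNL, 1.44 in OA and 1.51 in WT CPM per kilobase. In OA the lowest was BDH1, a ketone body enzyme, at 1.08 CPM per kilobase. The median coefficient of variation over the 37 genes was 6.99% in DNL, 9.29% in OA and 5.57% in WT. SLC22A5 was the most variable gene in DNL and in WT, with 1.91, 5.25 and 5.94 CPM in DNL, 5.29, 4.81 and 3.92 CPM in OA and 5.18, 3.35 and 6.18 CPM in WT, and these 3 groups overlap.

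**Figure D1:**
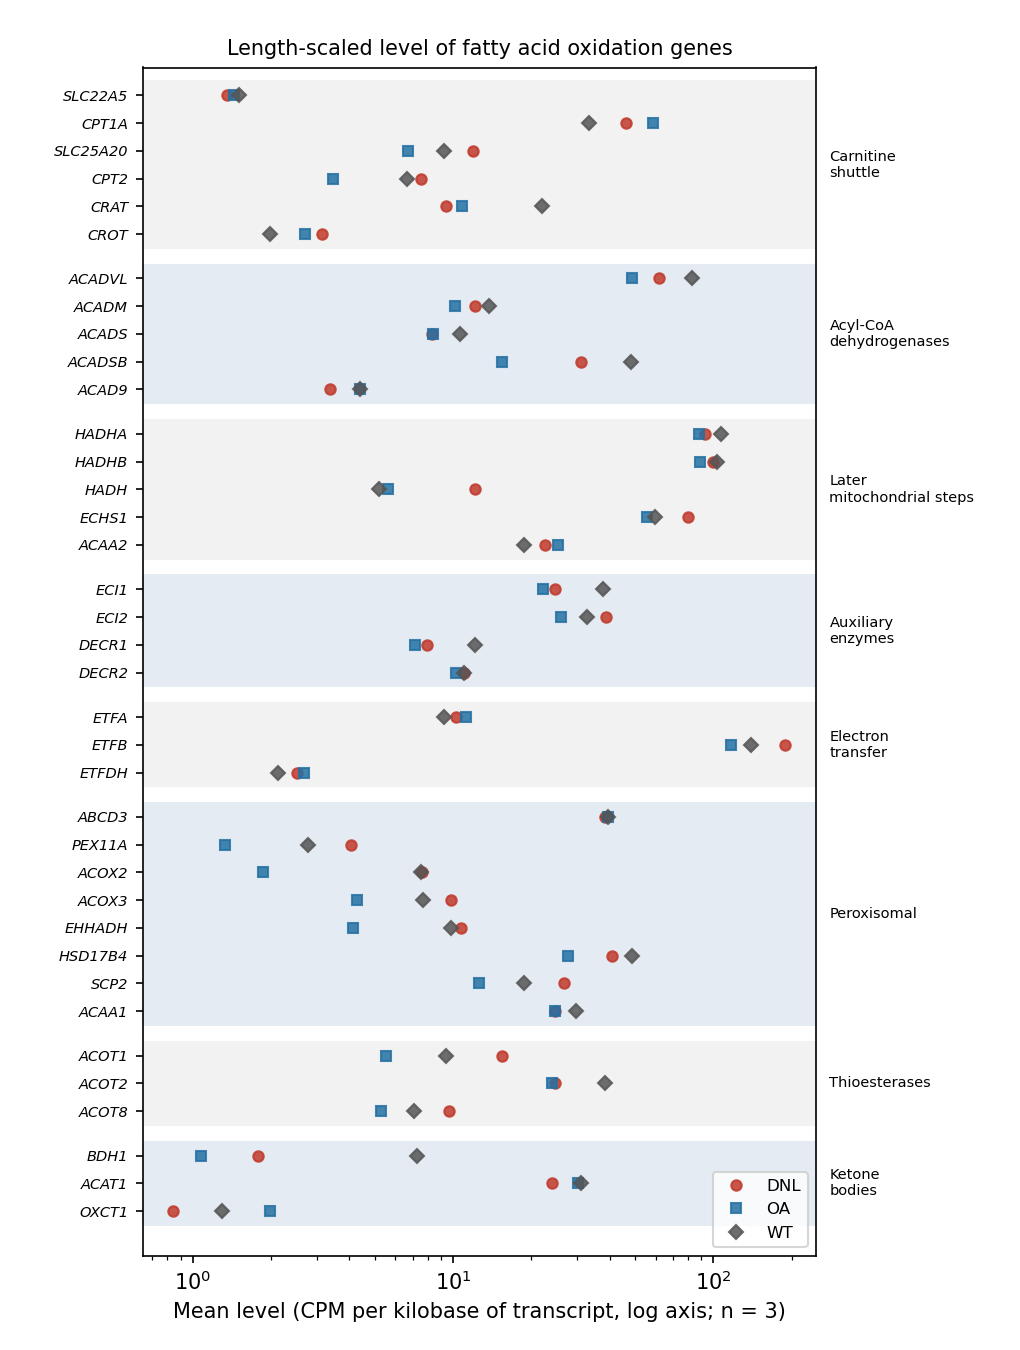
Mean level of each of the 37 genes in CPM per kilobase of transcript (log axis, n = 3 per group), ordered by role, with DNL as circles, OA as squares and WT as diamonds. ETFB, HADHA and HADHB sit furthest right in WT, and in the peroxisomal block the OA squares lie left of the WT diamonds for PEX11A, ACOX2, ACOX3, EHHADH, HSD17B4 and SCP2.

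In DNL against WT, 13 of the 37 genes rose and 14 fell by edgeR's quasi-likelihood test (adjusted p under 0.05), and 10 were not called. That is 73.0% called, against a background of 53.8% of all genes tested. Among all 13636 genes tested, 27.1% were called higher and 26.8% lower, against 35.1% and 37.8% of the 37. The median log2 fold change was 0.0019 over the 37 genes and -0.018 over all genes tested. At least 2-fold, 1 of the 37 genes rose (HADH, background 7.21%) and 2 of the 37 fell (CRAT and BDH1, background 5.07%). The falls were near the background share. When libraries were scaled by their totals instead of TMM, the median of all genes moved by -0.17 in this comparison. On that scale 7 genes rose and 17 fell, and the share of all calls that were higher was 32.2%, against 50.3% with TMM. Without OA replicate 3, which enters this comparison through the shared estimate of spread, all 27 calls were kept.

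In OA against WT, 4 of the 37 genes rose and 23 fell, with 10 not called. That is again 73.0% called, with a background of 60.0%. The background of genes called lower was 29.7%, against 62.2% of the 37, and the background of genes called higher was 30.4%, against 10.8%. The median log2 fold change was -0.34 over the 37 genes and -0.029 over all genes tested. The 4 that rose were CPT1A, ACAA2, ETFA and OXCT1. At least 2-fold falls were seen for 6 genes, CRAT, ACADSB, PEX11A, ACOX2, EHHADH and BDH1, against a background of 7.95%, and 0 genes rose that much (background 8.88%). Without OA replicate 3, all 23 falls were kept and 3 of the 4 rises. Without WT replicate 1, 2 of the 4 rises and 21 of the 23 falls were kept. DNL and OA were both compared with the same WT samples, so the fold changes set side by side below are not independent.

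**Figure D2:**
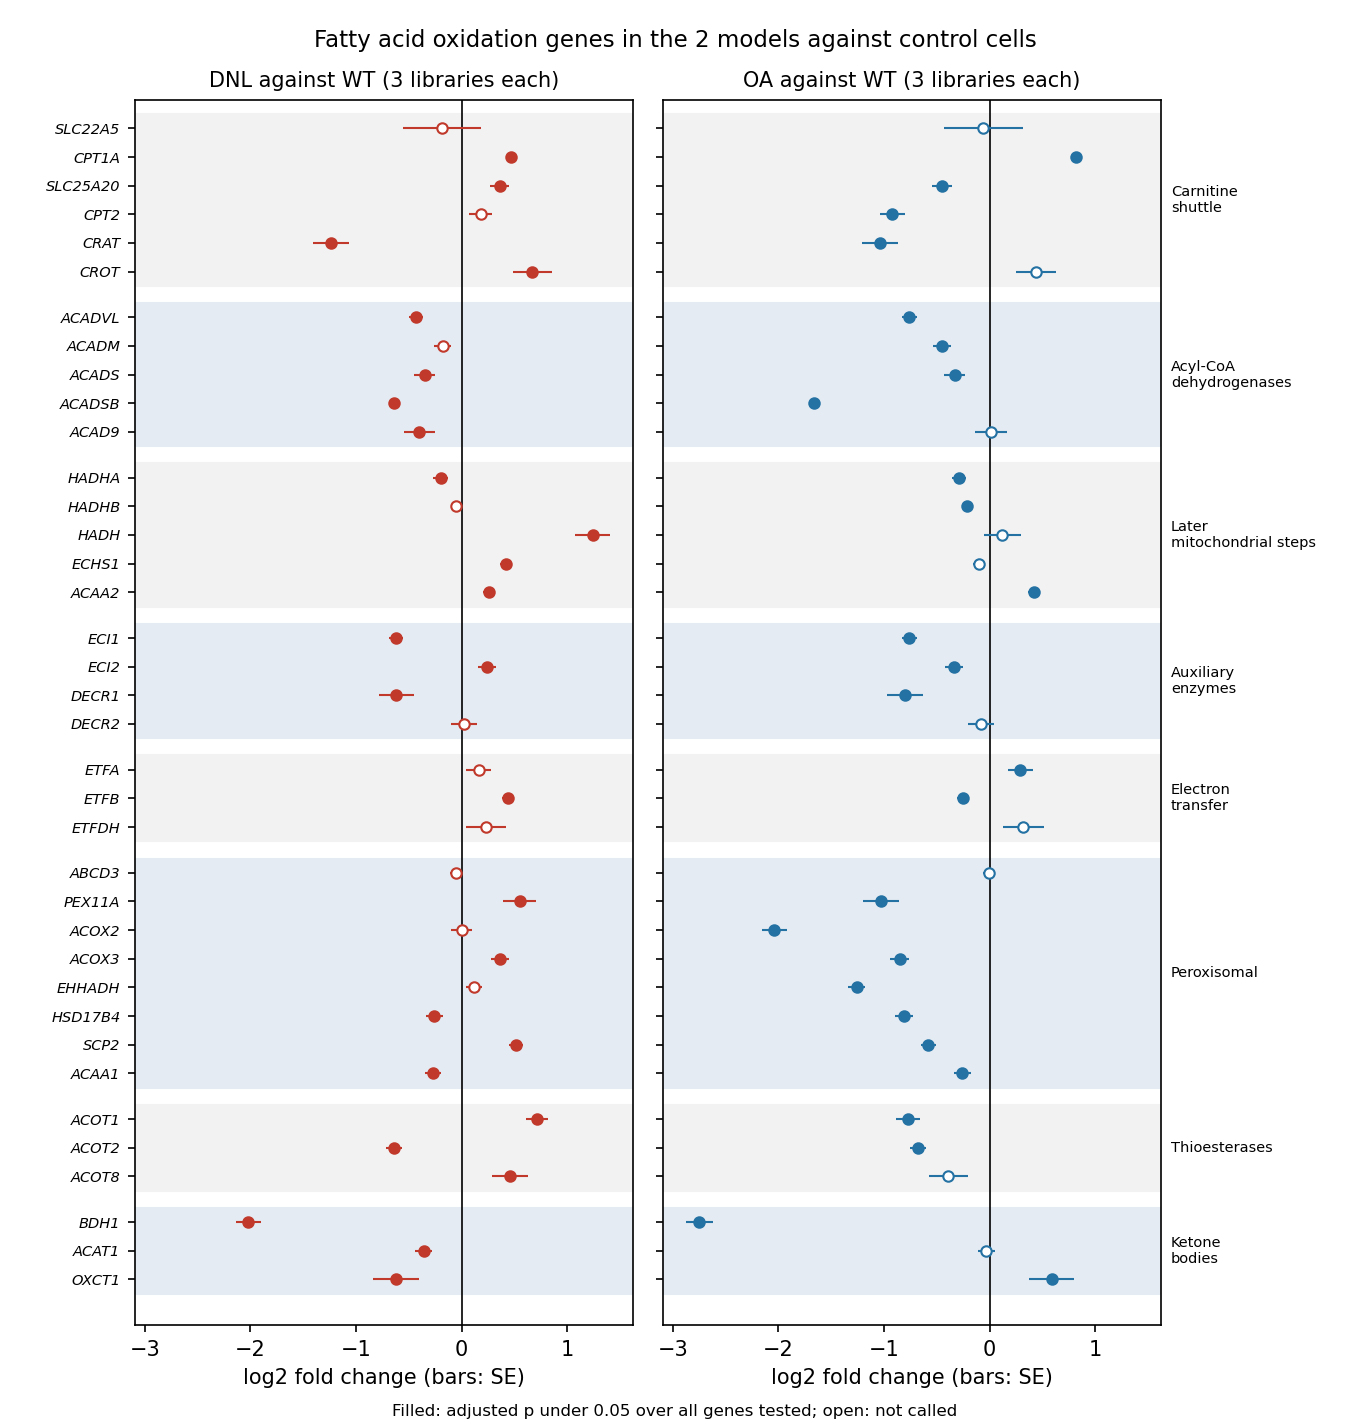
Log2 fold change of each of the 37 genes in DNL against WT (left) and in OA against WT (right), with bars of 1 SE; filled points have an adjusted p under 0.05 over all genes tested. Points lie on both sides of 0 in DNL, while in OA 7 of the 8 genes in the peroxisomal block lie left of 0 as filled points, with CPT1A on the right.

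The carnitine shuttle carries fatty acyl groups into mitochondria, and of its 6 genes 3 rose and 1 fell in DNL, while 1 rose and 3 fell in OA. The shares of all genes tested were 27.1% higher and 26.8% lower in DNL, and 30.4% higher and 29.7% lower in OA, and counts of so few genes are given as descriptions here and for the groups that follow. CPT1A, which makes the acylcarnitine at the outer membrane and is regarded as the rate-limiting step (chromosome 11, 68754620 to 68844410 on GRCh38), measured 247, 237 and 239.6 CPM in DNL, 321, 296 and 305 CPM in OA and 172, 176 and 174 CPM in WT. The groups did not overlap, with OA highest and WT lowest. The gene rose in DNL (log2 fold change 0.47, SE 0.0401, adjusted p = 5.57e-07) and in OA (log2 fold change 0.82, SE 0.0404, adjusted p = 2.73e-09). SLC25A20, which exchanges acylcarnitine for carnitine across the inner membrane, had 21.7, 24.1 and 21.4 CPM in DNL, 13.8, 12.6 and 11.5 CPM in OA and 17.2, 17.0 and 18.0 CPM in WT. It rose in DNL (log2 fold change 0.36, adjusted p = 0.00469) and fell in OA (log2 fold change -0.45, adjusted p = 0.00125), and the call in DNL was lost under scaling by library totals (adjusted p = 0.0935). CPT2, which restores acyl-CoA in the matrix, had 20.5, 23.5 and 26.1 CPM in DNL, 11.6, 11.3 and 9.26 CPM in OA and 19.2, 20.4 and 22.3 CPM in WT. Every OA library was below every WT library, and CPT2 fell in OA (log2 fold change -0.92, SE 0.120, adjusted p = 2.11e-05), while DNL overlapped WT (log2 fold change 0.18, adjusted p = 0.2).

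CRAT, a carnitine acyltransferase for short chains, was lower in both models than in WT, with 19.1, 25.4 and 33.3 CPM in DNL, 30.9, 26.5 and 32.2 CPM in OA and 64.2, 60.7 and 57.6 CPM in WT. All DNL and OA libraries lay below the WT libraries, and the DNL libraries were uneven, with replicate 1 lowest and replicate 3 highest. The gene fell in DNL (log2 fold change -1.24, SE 0.170, adjusted p = 0.000184) and in OA (log2 fold change -1.04, SE 0.173, adjusted p = 0.000532). CROT, which makes carnitine esters of medium chains in peroxisomes, had 10.0, 10.2 and 9.72 CPM in DNL, 9.39, 6.92 and 9.38 CPM in OA and 4.74, 6.63 and 7.46 CPM in WT. It rose in DNL (log2 fold change 0.67, SE 0.181, adjusted p = 0.00685), where every library was above every WT library. In OA it had a log2 fold change of 0.44 against WT and was not called (adjusted p = 0.0601), though it was called higher with scaling by library totals (adjusted p = 0.0384), with size factors of the median-ratio kind (adjusted p = 0.0484) and without OA replicate 2 or WT replicate 3 (adjusted p 0.0234 and 0.0311). SLC22A5 was not called in either comparison, with log2 fold changes of -0.19 (SE 0.370) in DNL and -0.06 (SE 0.376) in OA.

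The acyl-CoA dehydrogenases take the first step of each mitochondrial cycle, and 4 of 5 fell in each model with 0 higher, against 26.8% of all genes lower in DNL and 29.7% in OA. ACADSB, which acts on short branched chains in isoleucine breakdown (chromosome 10, 123008979 to 123058311), measured 181, 190.0 and 177 CPM in DNL, 90.6, 88.8 and 90.8 CPM in OA and 274, 289 and 287 CPM in WT. The groups were far apart, with OA lowest, DNL between and WT highest. ACADSB fell in DNL (log2 fold change -0.64, SE 0.0411, adjusted p = 4.17e-08) and in OA (log2 fold change -1.66, SE 0.0434, adjusted p = 1.28e-11). ACADVL, the dehydrogenase of very long chains and the most abundant of the 5 per kilobase in all 3 groups, had 137, 157 and 135 CPM in DNL, 124, 110.4 and 106 CPM in OA and 197, 185 and 194 CPM in WT. The groups did not overlap. ACADVL fell 1.35-fold in DNL (adjusted p = 0.000135) and 1.69-fold in OA (adjusted p = 8.39e-07).

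ACADM, the medium-chain dehydrogenase, averaged 31.9 ± 2.10 CPM in DNL, 26.6 ± 0.639 CPM in OA and 36.2 ± 3.24 CPM in WT (SD, n = 3). ACADM fell in OA (log2 fold change -0.45, adjusted p = 0.00048) and was not called in DNL (log2 fold change -0.18, adjusted p = 0.0792), where it was called lower without WT replicate 3 (adjusted p = 0.0277) and with scaling by library totals (adjusted p = 0.00225). ACADS, the short-chain dehydrogenase, averaged 16.2 ± 0.987 CPM in DNL, 16.3 ± 1.61 CPM in OA and 20.6 ± 1.37 CPM in WT, with log2 fold changes of -0.35 in DNL (adjusted p = 0.00894) and -0.33 in OA (adjusted p = 0.0136). The OA call was lost without OA replicate 1 or WT replicate 1 (adjusted p 0.0511 and 0.0619), and the DNL call did not hold without DNL replicate 1 (adjusted p = 0.0537). ACAD9, better known for its part in the assembly of respiratory complex I, had 6.77, 9.98 and 8.14 CPM in DNL, 9.79, 12.1 and 10.4 CPM in OA and 10.3, 11.2 and 11.0 CPM in WT. It was called lower in DNL (log2 fold change -0.40, adjusted p = 0.0401) but lost the call by DESeq2 (adjusted p = 0.0516) and without DNL replicate 1, DNL replicate 3, WT replicate 1, WT replicate 2 or WT replicate 3 (adjusted p between 0.0679 and 0.196), and in OA its log2 fold change was 0.01 (adjusted p = 0.978).

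Of the 5 genes for the later mitochondrial steps, 3 rose and 1 fell in DNL, and 1 rose and 2 fell in OA. HADH, the dehydrogenase of short and medium 3-hydroxyacyl chains (chromosome 4, 107989714 to 108035175), measured 21.0, 22.9 and 26.4 CPM in DNL, 7.97, 12.2 and 12.1 CPM in OA and 8.93, 12 and 8.81 CPM in WT. All DNL libraries lay above all others, and OA overlapped WT. HADH rose in DNL (log2 fold change 1.24, SE 0.168, adjusted p = 5.01e-05) and had a log2 fold change of 0.12 in OA (SE 0.177, adjusted p = 0.569). ECHS1, the short-chain enoyl-CoA hydratase, had 126, 123 and 139.6 CPM in DNL, 93, 90.4 and 87.0 CPM in OA and 95.8, 96.8 and 97.6 CPM in WT. It rose in DNL (log2 fold change 0.42, SE 0.0540, adjusted p = 2.46e-05) and was not called in OA (log2 fold change -0.10, adjusted p = 0.136). ACAA2, the mitochondrial thiolase, had 76.7, 73.5 and 76.4 CPM in DNL, 80.2, 84.6 and 89.4 CPM in OA and 65.4, 63.3 and 60.4 CPM in WT, so that both models lay above WT in every library. Its log2 fold changes were 0.26 in DNL (adjusted p = 0.00156, lost with scaling by library totals at adjusted p = 0.156) and 0.42 in OA (adjusted p = 2.73e-05).

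HADHA and HADHB encode the alpha and beta subunits of the trifunctional protein and start from the shared promoter printed above. HADHA had 307, 277 and 264 CPM in DNL, 286, 276 and 237 CPM in OA and 338, 321 and 318 CPM in WT. HADHB had 197, 194 and 220.3 CPM in DNL, 184, 172 and 191 CPM in OA and 214, 214 and 204 CPM in WT. All DNL and OA libraries lay below WT for HADHA, while for HADHB every OA library lay below WT and DNL overlapped it. In OA both fell, HADHA by a log2 fold change of -0.29 (adjusted p = 0.00426) and HADHB by -0.21 (adjusted p = 0.00479). The HADHB call was lost with scaling by library totals (adjusted p = 0.0506). In DNL only HADHA was called (log2 fold change -0.20, adjusted p = 0.0284; HADHB -0.05, adjusted p = 0.485, called lower with scaling by library totals at adjusted p = 0.00722), and the HADHA call was lost without DNL replicate 2, DNL replicate 3, WT replicate 1 or WT replicate 2 (adjusted p between 0.0558 and 0.113). Whether the subunits differed from each other was not tested.

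Unsaturated fatty acids such as oleic acid need auxiliary enzymes that move or reduce their double bonds, and of 4 such genes 1 rose and 2 fell in DNL, while 0 rose and 3 fell in OA. ECI1, the mitochondrial enoyl-CoA isomerase that handles the double bond of oleic acid, measured 36.9, 38.1 and 38.7 CPM in DNL, 37.4, 34.1 and 31.3 CPM in OA and 58.6, 58.5 and 57.7 CPM in WT. Every library of both models was below every WT library. ECI1 fell in DNL (log2 fold change -0.62, SE 0.0663, adjusted p = 4.66e-06) and in OA (log2 fold change -0.76, SE 0.0683, adjusted p = 7.36e-07). DECR1, the mitochondrial dienoyl-CoA reductase, had 8.37, 9.58 and 10.7 CPM in DNL, 9.47, 6.52 and 9.85 CPM in OA and 12.6, 16.2 and 15.2 CPM in WT and also fell in DNL (log2 fold change -0.62, adjusted p = 0.00636) and in OA (log2 fold change -0.80, adjusted p = 0.00129). ECI2, an isomerase found in peroxisomes and mitochondria, had 61.8, 62.3 and 55.9 CPM in DNL, 43.2, 40.2 and 37.3 CPM in OA and 56.7, 49.4 and 46.4 CPM in WT. It fell in OA (log2 fold change -0.34, adjusted p = 0.0042). In DNL it was called higher (log2 fold change 0.24, adjusted p = 0.0277), a call lost with scaling by library totals (adjusted p = 0.464) and without DNL replicate 1, DNL replicate 2, WT replicate 2 or WT replicate 3 (adjusted p between 0.0701 and 0.13). DECR2, the peroxisomal reductase, averaged 17.8 ± 2.98 CPM in DNL, 16.7 ± 1.82 CPM in OA and 17.7 ± 0.694 CPM in WT and was not called, with log2 fold changes of 0.02 in DNL and -0.08 in OA.

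The electron transfer flavoprotein takes the electrons of the dehydrogenases to ETFDH, its oxidoreductase in the inner membrane, and of these 3 genes 1 rose in DNL, while 1 rose and 1 fell in OA. ETFB, the beta subunit, measured 171, 169.9 and 171 CPM in DNL, 115, 99.7 and 102 CPM in OA and 131, 120.4 and 125 CPM in WT. The DNL libraries were almost equal and above all others, and the OA libraries were below all WT libraries. ETFB rose in DNL (log2 fold change 0.44, SE 0.0542, adjusted p = 1.68e-05) and fell in OA (log2 fold change -0.25, SE 0.0557, adjusted p = 0.0016). ETFA, the alpha subunit, had 19.5, 26.1 and 25.3 CPM in DNL, 25.1, 28.2 and 23.6 CPM in OA and 20.9, 22.9 and 19.5 CPM in WT. It was called higher in OA (log2 fold change 0.29, adjusted p = 0.0487), a call lost with no filter on low counts (adjusted p = 0.0626) and without DNL replicate 3, OA replicate 1, OA replicate 2, WT replicate 1 or WT replicate 3 (adjusted p between 0.0553 and 0.217). It was not called in DNL (log2 fold change 0.16, adjusted p = 0.28), but was called higher without DNL replicate 1 (adjusted p = 0.0369). ETFDH averaged 8.27 ± 1.94 CPM in DNL, 8.81 ± 1.46 CPM in OA and 7.0 ± 0.914 CPM in WT, with log2 fold changes of 0.23 in DNL (adjusted p = 0.34) and 0.32 in OA (adjusted p = 0.18), and was not called.

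Most of the genes grouped under peroxisomal beta-oxidation were low in OA. There, 7 of 8 fell and 0 rose, with a median log2 fold change of -0.83, against -0.029 over all genes tested and 29.7% of all genes called lower. Hepatocyte markers fell in OA as well, as given above, and their part in these values was not tested. In DNL, 3 of the 8 rose and 2 fell, with a median of 0.059. CROT, DECR2 and ACOT8, peroxisomal enzymes counted in other groups, were not called in OA. ACOX2, the oxidase of branched chains and bile acid precursors (chromosome 3, 58505136 to 58537319), measured 19.1, 19.4 and 16.6 CPM in DNL, 4.66, 4.25 and 4.63 CPM in OA and 17.5, 17.8 and 19.7 CPM in WT. DNL and WT overlapped, and every OA library held less than 5 CPM. ACOX2 fell 4.10-fold in OA (log2 fold change -2.04, SE 0.118, adjusted p = 1.2e-08), whereas DNL had a log2 fold change of 0.00 (SE 0.101). EHHADH, the peroxisomal bifunctional enzyme for straight chains (chromosome 3, 185190624 to 185281990), had 41.7, 42.6 and 39.1 CPM in DNL, 17.8, 15 and 14.8 CPM in OA and 38.2, 37.9 and 37.7 CPM in WT. It fell in OA (log2 fold change -1.26, SE 0.0832, adjusted p = 4.16e-08) and was not called in DNL (log2 fold change 0.12, adjusted p = 0.216).

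SCP2 encodes both the peroxisomal thiolase SCPx, from its upstream start, and sterol carrier protein, from its downstream start, and the gene counts hold the transcripts of both. It measured 71.9, 72.6 and 81.3 CPM in DNL, 37.3, 33.8 and 35.3 CPM in OA and 52.1, 55.3 and 51.0 CPM in WT. No groups overlapped, with DNL above WT and OA below it. SCP2 rose in DNL (log2 fold change 0.51, SE 0.0659, adjusted p = 2.52e-05) and fell in OA (log2 fold change -0.58, SE 0.0696, adjusted p = 1.07e-05). ACOX3, an oxidase of branched chains, had 26.4, 29.3 and 28.6 CPM in DNL, 13.4, 11.6 and 11.6 CPM in OA and 22.3, 21.4 and 22.1 CPM in WT. It rose in DNL (log2 fold change 0.36, adjusted p = 0.00301, lost with scaling by library totals at adjusted p = 0.0824) and fell in OA (log2 fold change -0.85, SE 0.0908, adjusted p = 3.77e-06). PEX11A, which takes part in peroxisome division, had 11.1, 11.9 and 10.3 CPM in DNL, 3.55, 4.05 and 3.32 CPM in OA and 6.67, 6.90 and 9.21 CPM in WT. Its level was higher in every DNL library than in WT and lower in every OA library. The log2 fold changes were 0.55 in DNL (adjusted p = 0.0101, lost with scaling by library totals at adjusted p = 0.0581) and -1.03 in OA (adjusted p = 0.000174).

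HSD17B4, the bifunctional enzyme for branched chains, had 110.4, 104 and 113 CPM in DNL, 79.7, 78.0 and 65.4 CPM in OA and 145, 127 and 121 CPM in WT. It fell in OA (log2 fold change -0.81, SE 0.0816, adjusted p = 2.87e-06). The smaller fall in DNL (log2 fold change -0.26, adjusted p = 0.014) was not called without DNL replicate 2 or WT replicate 1 (adjusted p 0.067 and 0.0906). ACAA1, the peroxisomal thiolase of straight chains, averaged 44.0 ± 3.09 CPM in DNL, 44.1 ± 4.04 CPM in OA and 52.9 ± 2.95 CPM in WT and was called lower in both models, with log2 fold changes of -0.27 in DNL (adjusted p = 0.0107) and -0.26 in OA (adjusted p = 0.013). The DNL call did not hold without DNL replicate 3 or WT replicate 1 (adjusted p 0.0505 and 0.0633), nor the OA call without WT replicate 1 (adjusted p = 0.0661). ABCD3, which carries acyl-CoA into peroxisomes, averaged 135 ± 2.13 CPM in DNL, 139 ± 12.4 CPM in OA and 139.8 ± 3.34 CPM in WT. Of the 8 genes in this group, it was the one not called in OA (log2 fold change -0.01, SE 0.0575). In DNL its log2 fold change was -0.05 (adjusted p = 0.495, called lower with scaling by library totals at adjusted p = 0.00769).

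**Figure D3:**
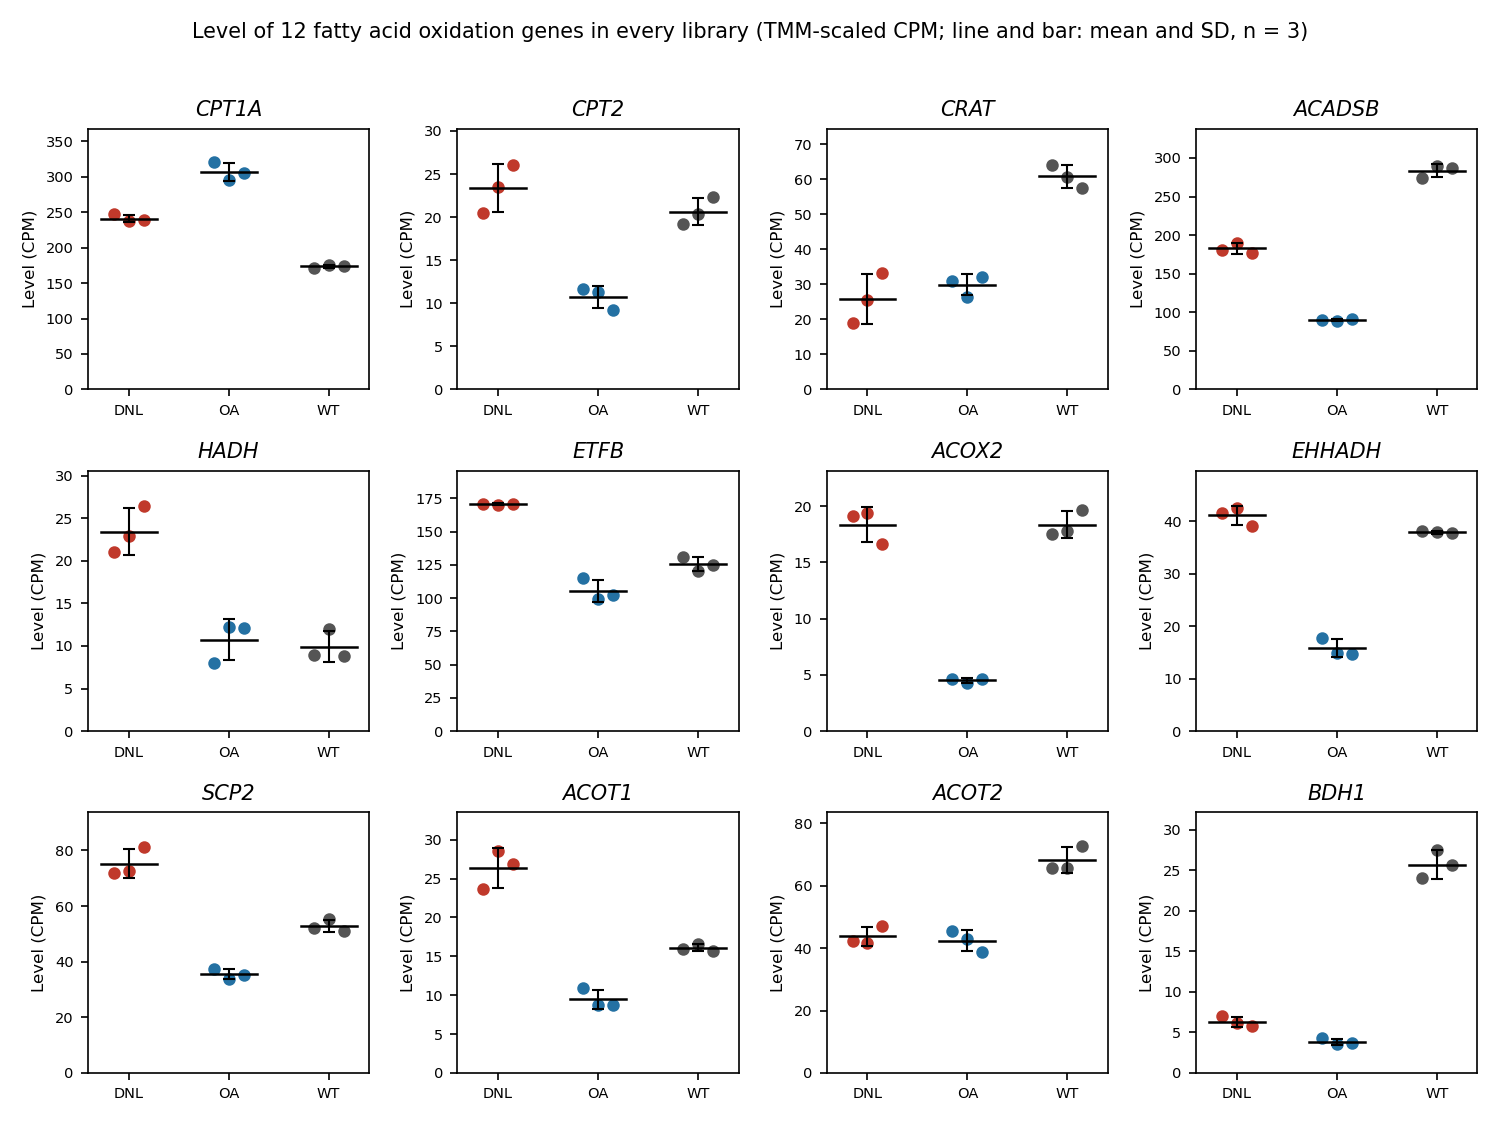
Level of 12 of the genes in every library (CPM, linear axes from 0), with points for the 3 libraries of DNL, OA and WT from left to right and the mean ± SD in black. OA libraries are lowest for ACOX2, EHHADH and SCP2 and highest for CPT1A, DNL libraries are highest for HADH and ETFB, and both models are far below WT for BDH1.

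Acyl-CoA thioesterases release free fatty acids from acyl-CoA in a given compartment. ACOT1, the cytosolic enzyme, measured 23.6, 28.6 and 26.9 CPM in DNL, 10.9, 8.73 and 8.79 CPM in OA and 16.0, 16.6 and 15.7 CPM in WT. ACOT2, its mitochondrial neighbour on chromosome 14, measured 42.4, 41.6 and 47.2 CPM in DNL, 45.5, 43.0 and 38.7 CPM in OA and 65.8, 65.8 and 72.9 CPM in WT. ACOT1 rose in DNL (log2 fold change 0.71, SE 0.104, adjusted p = 8.1e-05) and fell in OA (log2 fold change -0.77, SE 0.114, adjusted p = 6.65e-05), while ACOT2 fell in DNL (log2 fold change -0.64, SE 0.0747, adjusted p = 1.07e-05) and in OA (log2 fold change -0.68, SE 0.0765, adjusted p = 5.89e-06). These genes are near-identical copies: 65% of the 31-base words in ACOT1's coding transcripts of GENCODE release 29 were also found in ACOT2, so the estimator's split of reads between them is uncertain. Summed, they had 66.0, 70.2 and 74.1 CPM in DNL, 56.4, 51.7 and 47.5 CPM in OA and 81.9, 82.4 and 88.6 CPM in WT, and the sum was lower in DNL than in WT (log2 fold change -0.27, adjusted p = 0.0052), the reverse of ACOT1 alone. In OA every summed level was below every WT one, as for each gene alone.

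ACOT8, the peroxisomal thioesterase, had 12.7, 10.6 and 10.6 CPM in DNL, 7.26, 6.88 and 4.39 CPM in OA and 7.16, 8.77 and 8.89 CPM in WT. Its call as higher in DNL (log2 fold change 0.46, adjusted p = 0.0405) was lost with scaling by library totals (adjusted p = 0.177), with the replicate number as a block (adjusted p = 0.0544) and without DNL replicate 1, DNL replicate 2, DNL replicate 3, WT replicate 1, WT replicate 2 or WT replicate 3 (adjusted p between 0.0501 and 0.149). In OA it had a log2 fold change of -0.39 and was not called (adjusted p = 0.0827). Apart from ACOT1 and ACOT2, the share of 31-base words found in other genes was above 20% for CPT2, ACAA2, DECR2 and ETFB, and 0% for ACADM, ACADS, HADH, ECHS1, ECI1, ACOX2 and ACOX3.

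Of the 3 ketone body enzymes, all fell in DNL, and in OA 1 fell and 1 rose. BDH1, which interconverts acetoacetate and hydroxybutyrate in mitochondria (chromosome 3, 197509783 to 197573323), measured 7.02, 6.12 and 5.82 CPM in DNL, 4.26, 3.59 and 3.68 CPM in OA and 24.0, 27.5 and 25.6 CPM in WT. Neither model overlapped WT, and the OA libraries lay below the DNL libraries. BDH1 fell 4.05-fold in DNL (log2 fold change -2.02, SE 0.117, adjusted p = 1.51e-08) and 6.72-fold in OA (log2 fold change -2.75, SE 0.129, adjusted p = 1.84e-09). ACAT1, the thiolase that joins 2 acetyl-CoA into acetoacetyl-CoA, had 41.9, 40.5 and 44.2 CPM in DNL, 55.9, 55.6 and 47.2 CPM in OA and 55.9, 58.1 and 49.0 CPM in WT. It fell in DNL (log2 fold change -0.36, adjusted p = 0.00204) and was not called in OA (log2 fold change -0.03, adjusted p = 0.758). OXCT1 had 2.92, 2.99 and 2.66 CPM in DNL, 5.68, 5.93 and 8.55 CPM in OA and 3.89, 3.96 and 5.38 CPM in WT, low in all groups and highest in OA replicate 3, the library with the most COL1A1. It was called higher in OA (log2 fold change 0.59, adjusted p = 0.0285), a call lost without OA replicate 3, WT replicate 1 or WT replicate 2 (adjusted p between 0.0948 and 0.114). The call as lower in DNL (log2 fold change -0.62, adjusted p = 0.0273) was lost without DNL replicate 1, DNL replicate 2, DNL replicate 3 or WT replicate 3 (adjusted p between 0.0507 and 0.125).

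DNL was also set against OA directly, in the same fit. Of the 37 genes 19 were higher in DNL and 5 lower, against a background of 31.9% and 30.9% of all genes tested, and 13 were not called. In all 64.9% were called, against a background of 62.8%, and the median log2 fold change was 0.24, against 0.013 over all genes tested. Without OA replicate 3, 23 of the 24 calls were kept, and without OA replicate 2, 20 were kept, of which 3 were lower. At least 2-fold, 9 were higher (background 10.1%) and 1 was lower (background 9.94%). ACOT1 was among the 9 (log2 fold change 1.48, adjusted p = 1.29e-07). Its counts summed with those of ACOT2 had a log2 fold change of 0.43 (adjusted p = 0.000155). With scaling by library totals the median of all genes moved by -0.23, 16 of the 37 were higher and 9 lower, and 33.9% of all calls were higher, against 50.8% with TMM. Of the 8 genes grouped under peroxisomal beta-oxidation, 6 were higher in DNL and 0 lower, with a median of 1.15. ACOX2 (log2 fold change 2.04, SE 0.119, adjusted p = 8.27e-09), PEX11A (log2 fold change 1.58, SE 0.172, adjusted p = 3.41e-06) and EHHADH (log2 fold change 1.38, SE 0.0839, adjusted p = 1.29e-08) had the highest fold changes among them. ACOX3 and SCP2 followed, at 1.2 and 1.09, and HSD17B4 had 0.55, while ABCD3 and ACAA1 were not called, at -0.04 and -0.01.

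In the mitochondria, CPT2 (log2 fold change 1.10, SE 0.121, adjusted p = 3.75e-06), HADH (log2 fold change 1.12, SE 0.175, adjusted p = 0.00012) and ACADSB (log2 fold change 1.02, SE 0.0433, adjusted p = 4.21e-10) were more than 2-fold higher in DNL than in OA. SLC25A20, ETFB and ECHS1 were higher too, at 0.82, 0.69 and 0.52. CPT1A was lower in DNL than in OA (log2 fold change -0.35, SE 0.0402, adjusted p = 6.02e-06), as was OXCT1 (log2 fold change -1.22, SE 0.221, adjusted p = 0.000335). BDH1, low in both models, was still higher in DNL than in OA (log2 fold change 0.73, SE 0.135, adjusted p = 0.000373). The calls of ACADM, HADHB, ACAA2 and ACAD9, at 0.27, 0.16, -0.16 and -0.40, were lost without single libraries: ACADM without DNL replicate 1 or OA replicate 2 (adjusted p 0.0591 and 0.051), HADHB without DNL replicate 3 or OA replicate 2 (adjusted p 0.0897 and 0.0975), ACAA2 without DNL replicate 2, OA replicate 2 or OA replicate 3 (adjusted p between 0.0534 and 0.0885) and ACAD9 without DNL replicate 1, DNL replicate 3, OA replicate 2, WT replicate 1, WT replicate 2 or WT replicate 3 (adjusted p between 0.0534 and 0.169). CRAT and ECI1, not called at -0.19 and 0.14, were called when libraries were left out, CRAT without DNL replicate 3 (adjusted p = 0.0128) and ECI1 without OA replicate 1 (adjusted p = 0.0187). With scaling by library totals the calls of ACADVL and ACADM were lost (adjusted p = 0.259 and 0.723), HADHB had a log2 fold change of -0.07 (adjusted p = 0.337), and ACADS, ETFA, ABCD3 and ACAA1 were called lower in DNL than in OA (adjusted p between 0.00132 and 0.0441).

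**Figure D4:**
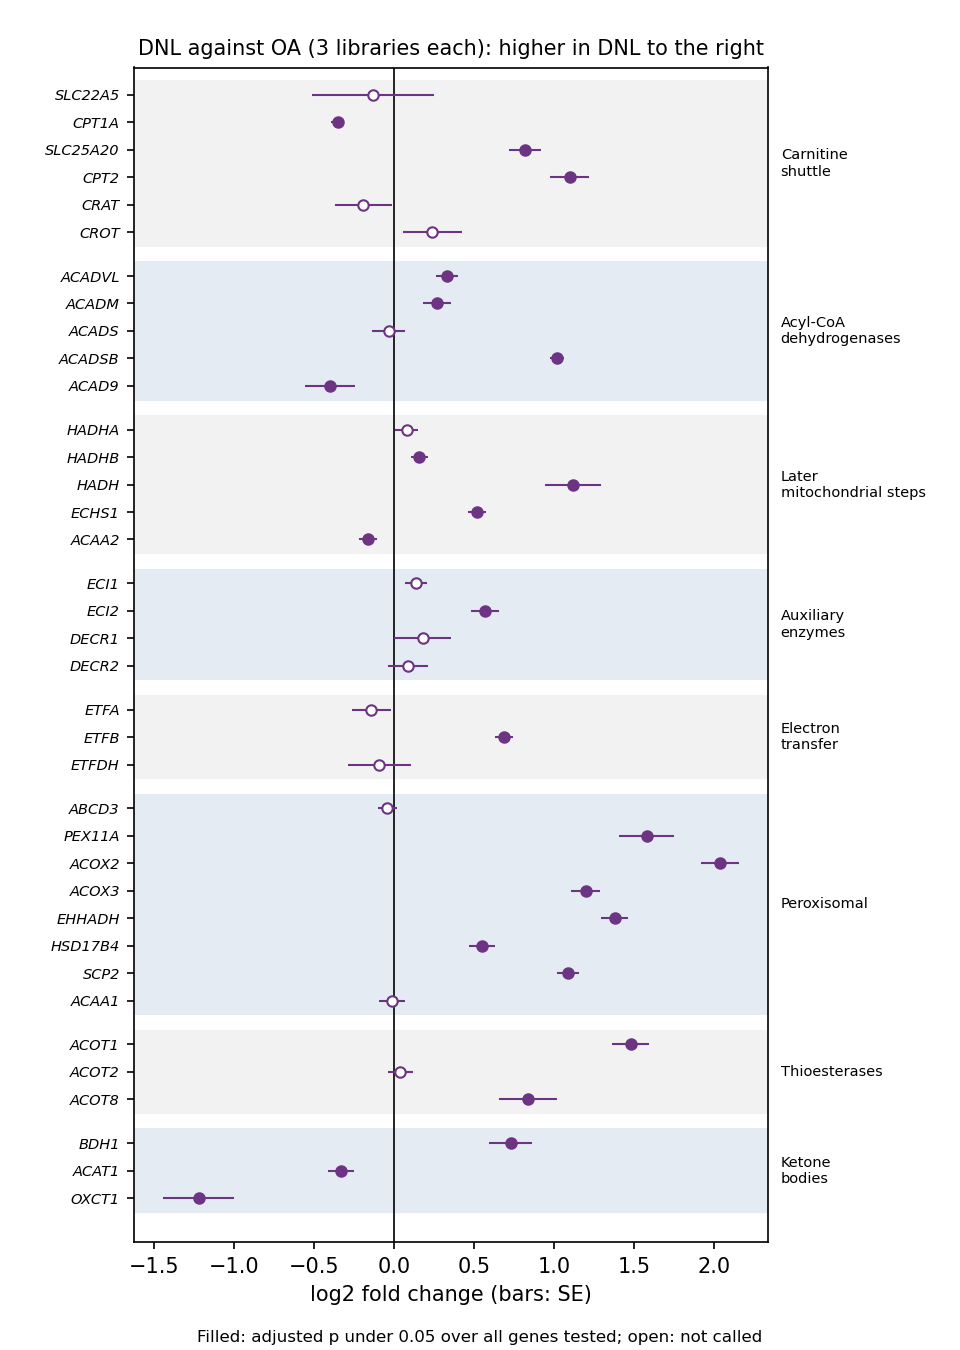
Log2 fold change of each of the 37 genes in DNL against OA, with bars of 1 SE; points right of 0 are higher in DNL, and filled points have an adjusted p under 0.05 over all genes tested. ACOX2 lies furthest right at 2.04, and OXCT1 and CPT1A lie left of 0.

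Of a list of 35 other genes of the pathway, 26 passed the filter. In DNL against WT 6 of the 26 fell and 7 rose, near the shares of all genes tested (27.1% higher and 26.8% lower). In OA 18 fell and 2 rose, against 30.4% higher and 29.7% lower of all genes, and without OA replicate 3, 17 fell and 1 rose of 27 that passed. ACAD11, a dehydrogenase of long chains, fell in DNL (log2 fold change -1.67, adjusted p = 1.88e-05) and further in OA (-2.12, adjusted p = 3.85e-06). PCCA, a subunit of propionyl-CoA carboxylase, also fell in DNL (-0.59, adjusted p = 1.43e-05) and in OA (-0.23, adjusted p = 0.0142). ECH1, a dienoyl-CoA isomerase, and BDH2 rose in DNL, at 0.67 and 1.38 (adjusted p = 4.91e-06 and 8.62e-05). In OA ECH1 fell (-0.43, adjusted p = 0.000282) and BDH2 was not called (0.47, adjusted p = 0.0773). The 2 that rose in OA were the mitochondrial coenzyme A carrier SLC25A42 (0.93, adjusted p = 3.3e-06) and HSD17B10 (0.22, adjusted p = 0.0305).

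Regulators of the pathway were measured beside its enzymes. Of 16 tested, DNL had 2 above WT and 10 below it, and OA had 3 above and 9 below, against 27.1% higher and 26.8% lower of all genes in DNL, and 30.4% higher and 29.7% lower in OA. PPARA, which encodes PPAR alpha, had 147, 142 and 145 CPM in DNL, 57.1, 55.4 and 55.4 CPM in OA and 82.6, 83.9 and 87.2 CPM in WT, above WT in DNL (log2 fold change 0.78, SE 0.0449, adjusted p = 1.46e-08) and below it in OA (log2 fold change -0.60, SE 0.0470, adjusted p = 2.17e-07). PPARGC1A, the coactivator PGC-1 alpha, had 75.2, 72.9 and 75.4 CPM in DNL, 20.6, 21.5 and 20.4 CPM in OA and 119, 127 and 128 CPM in WT. It was lower in both models, with OA lowest (log2 fold change -0.74 in DNL, adjusted p = 6.8e-08, and -2.58 in OA, adjusted p = 3.43e-12). ESRRA, a nuclear receptor that works with it, averaged 44.1 ± 2.26 CPM in DNL, 89.5 ± 5.16 CPM in OA and 114 ± 5.34 CPM in WT, and PPARD averaged 46.0 ± 2.17 CPM in DNL, 55.3 ± 2.63 CPM in OA and 109.5 ± 2.79 CPM in WT, both lower in each model (ESRRA log2 fold change -1.37 in DNL, adjusted p = 1.53e-09, and -0.35 in OA, adjusted p = 0.000269; PPARD -1.25, adjusted p = 1.57e-09, and -0.98, adjusted p = 1.41e-08). CREB3L3, a hepatic transcription factor, averaged 6.20 ± 0.667 CPM in DNL, 84.3 ± 1.56 CPM in OA and 18.1 ± 0.807 CPM in WT. It fell in DNL (log2 fold change -1.53, SE 0.0849, adjusted p = 9.78e-09) and rose in OA (log2 fold change 2.22, SE 0.0755, adjusted p = 1e-10). TFAM, which maintains mitochondrial DNA, was called higher in DNL (log2 fold change 0.16, adjusted p = 0.00611) and lower in OA (log2 fold change -0.28, adjusted p = 8.09e-05). PRKAA2, a catalytic subunit of AMPK, was called higher in OA (log2 fold change 0.37, adjusted p = 3.36e-05) and was not called in DNL (log2 fold change 0.06, adjusted p = 0.347). PRKAA1, the other catalytic subunit, fell in OA (log2 fold change -1.06, adjusted p = 2e-08) and in DNL (log2 fold change -0.24, adjusted p = 0.0058).

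Known targets of PPAR alpha outside the pathway, 16 of 19 of which passed the filter, numbered 6 higher and 6 lower in DNL, and 8 higher and 6 lower in OA, against 27.1% higher and 26.8% lower of all genes in DNL, and 30.4% higher and 29.7% lower in OA. PLIN2, which coats lipid droplets, averaged 712 ± 20.5 CPM in DNL, 3341 ± 112 CPM in OA and 412 ± 3.53 CPM in WT. It rose in DNL (log2 fold change 0.79, SE 0.0373, adjusted p = 2.21e-09) and in OA (log2 fold change 3.02, SE 0.0398, adjusted p = 7.88e-14). ANGPTL4, a secreted inhibitor of lipoprotein lipase, averaged 7.47 ± 0.735 CPM in DNL, 11.7 ± 1.57 CPM in OA and 1.67 ± 0.309 CPM in WT and also rose in DNL (log2 fold change 2.16, SE 0.187, adjusted p = 6.7e-07) and in OA (log2 fold change 2.81, SE 0.189, adjusted p = 5.07e-08). RETSAT, a retinol saturase, fell in DNL (log2 fold change -0.96, adjusted p = 1.72e-08) and in OA (-0.93, adjusted p = 2.21e-08), as did ACSL5, an acyl-CoA synthetase, in DNL (-0.69, adjusted p = 6.72e-09) and in OA (-0.11, adjusted p = 0.021). PDK4, which holds back the oxidation of pyruvate, had 0, 0 and 0.0831 CPM in DNL, 4.18, 5.37 and 4.16 CPM in OA and 0, 0 and 0 CPM in WT, so it was detected in every OA library. VNN1, a pantetheinase, had 3.68 ± 0.639 CPM in DNL, 28.7 ± 2.33 CPM in OA and 14.1 ± 0.717 CPM in WT, higher in OA and lower in DNL than in WT (log2 fold change 1.03 and -1.96, adjusted p = 4.99e-06 and 4.8e-08). FABP1, the liver fatty acid binding protein, moved the other way, with 147 ± 28.5 CPM in DNL, 9.96 ± 2.58 CPM in OA and 38.0 ± 6.31 CPM in WT (log2 fold change 1.95 in DNL, adjusted p = 3.85e-05, and -1.93 in OA, adjusted p = 0.000103).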

How the data were processed

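RNA-seq of 9 samples was deposited as 1 table of estimated counts per gene. The authors quantified reads with kallisto 0.48.0 after FastQC 0.11.9, on GRCh38, per the submitters' processing notes. Which annotation release and strand setting they used is not given in the sources used here. For 19316 of 19317 identifiers a gene symbol was matched. Counts were rounded, filtered with filterByExpr and TMM-scaled. They were tested with edgeR 4.0.16 (quasi-likelihood, R 4.3.3) in 1 fit of all 9 samples, with Benjamini-Hochberg adjustment over 13636 genes and a threshold of 0.05. SE is the log2 fold change over the root of F. Lengths and shared 31-base words come from GENCODE release 29.

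Where a gene had a count of 0, up to 3 counts remain possible, which equals 0.0697 to 0.383 CPM, for counting error only. Members of each role group with the smallest p, those changed at least 2-fold and those called in opposite directions are given by sample, with the 2 smallest p per direction for other lists. Some genes that this rule names are not reported here. The members and lists were chosen with earlier results of these data known. Alternatives used DESeq2 1.42.0, limma 3.58.1, other scalings and filters, and left-out libraries.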

Additional observations from a re-analysis of the deposited data

How the results depend on the processing

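Of 1893 gene values recomputed under the alternatives, 1759 kept direction and side of the threshold, 65 lost a call, 16 gained one and 53 changed sign, and 76 of 111 gene comparisons changed no call. Of the 53 sign changes, 51 were of values called in neither fit and 2 of called values, HADHB and ACOT1. Scaling by library totals left 7 genes higher in DNL against WT and 9 lower in DNL against OA. It also turned HADHB in DNL against OA to a log2 fold change of -0.07, and the cause was not tested. Summing ACOT1 with ACOT2, an alternative chosen after seeing the data, gave -0.27 for DNL against WT, by its construction. With libraries left out in turn, genes called numbered 11 to 13 higher and 10 to 14 lower in DNL against WT, 2 to 4 higher and 21 to 23 lower in OA against WT, and 17 to 20 higher and 3 to 5 lower in DNL against OA. The lowest of these for higher genes in OA came without WT replicate 1, and the lowest for lower genes in DNL against OA without OA replicate 2.

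Replicate numbers are shared between groups, but deviations of libraries with the same number correlated at most at 0.0534, so the samples were not taken as paired. With the replicate number as a block, 12 genes were higher and 14 lower in DNL against WT, 4 and 23 in OA against WT, and 19 and 5 in DNL against OA. ACOT8 in DNL lost its call there (adjusted p = 0.0544). Depth limits the low genes most: OXCT1, SLC22A5 and ACOT8 held few CPM, and OA replicate 3 was the shallowest library. BDH1, PEX11A and ACOX2, which fell at least 2-fold in OA, were low there too. They averaged 3.84, 3.64 and 4.51 CPM in OA, with 194, 196 and 227 counts summed over its libraries.

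The log2 fold changes of genes that changed sign when a library was left out, over all such fits, ranged in DNL against WT SLC22A5 -0.51 to 0.21, DECR2 -0.08 to 0.15 and ACOX2 -0.03 to 0.07; in OA against WT SLC22A5 -0.27 to 0.13, ACAD9 -0.10 to 0.07, HADH -0.01 to 0.29, ABCD3 -0.08 to 0.05 and ACAT1 -0.11 to 0.04; in DNL against OA SLC22A5 -0.45 to 0.26, CRAT -0.42 to 0.01, ACADS -0.09 to 0.07, DECR1 -0.02 to 0.28, ETFDH -0.21 to 0.11, ABCD3 -0.10 to 0.03, ACAA1 -0.06 to 0.06 and ACOT2 -0.02 to 0.09. Those that changed sign with library totals were in DNL against WT DECR2 -0.15, ETFA -0.01, ACOX2 -0.17 and EHHADH -0.05; in OA against WT SLC22A5 0.01, ABCD3 0.06 and ACAT1 0.04; in DNL against OA HADHA -0.15, ECI1 -0.09, DECR1 -0.05, DECR2 -0.14 and ACOT2 -0.19. The rest, under other alternatives, lay within 0.02 of 0: ACAD9 in OA against WT -0.01, ABCD3 in OA against WT 0.02, ABCD3 in OA against WT 0.01, ACOX2 in DNL against WT -0.01, ACOX2 in DNL against WT 0.00, ACAA1 in DNL against OA 0.00.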

Other observations

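A list of peroxisome biogenesis genes, to which CAT, the catalase of the peroxisome matrix, was added, had 15 genes tested. In DNL against WT 5 fell and 3 rose, with a median log2 fold change of 0.025, and in OA against WT 7 fell and 2 rose, with a median of -0.42, counting CAT among those that rose in each. Of all genes tested 27.1% higher and 26.8% lower were called in DNL, and 30.4% higher and 29.7% lower in OA. PEX6, an ATPase that recycles the import receptor, averaged 12.8 ± 1.27 CPM in DNL, 8.02 ± 0.981 CPM in OA and 18.9 ± 0.256 CPM in WT (SD, n = 3) and fell in OA (log2 fold change -1.22, SE 0.117, adjusted p = 1.39e-06) and in DNL (log2 fold change -0.55, SE 0.11, adjusted p = 0.000887). PEX26, its membrane anchor, averaged 137 ± 6.49 CPM in DNL, 87.9 ± 1.37 CPM in OA and 130.4 ± 5.38 CPM in WT and fell in OA (log2 fold change -0.57, SE 0.0508, adjusted p = 7.12e-07), with a log2 fold change of 0.07 in DNL. CAT averaged 123 ± 5.34 CPM in DNL, 82.9 ± 0.899 CPM in OA and 71.0 ± 2.47 CPM in WT and rose in DNL (log2 fold change 0.80, SE 0.050, adjusted p = 3.13e-08) and in OA (log2 fold change 0.22, SE 0.0511, adjusted p = 0.00206). PEX16, an early factor of peroxisome membranes, rose in OA (log2 fold change 0.35, adjusted p = 0.0126) and fell in DNL (log2 fold change -0.27, adjusted p = 0.0436). PEX5, the import receptor, fell in DNL (log2 fold change -0.29, adjusted p = 0.014) and in OA (log2 fold change -0.48, adjusted p = 0.000559).

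The tricarboxylic acid cycle, which burns the acetyl-CoA that beta-oxidation makes, counted 17 genes, of which DNL had 6 above WT and 3 below, and OA had 1 above and 6 below. The shares called in total, 52.9% in DNL and 41.2% in OA, were below the 53.8% and 60.0% of all genes. By direction, 35.3% were higher and 17.6% lower in DNL, against 27.1% and 26.8% of all genes tested. For OA, 5.88% were higher and 35.3% lower, against 30.4% and 29.7%. Without OA replicate 3, DNL had 6 above and 5 below, and OA 1 above and 4 below. CS, the citrate synthase, averaged 459 ± 9.62 CPM in DNL, 290.3 ± 5.34 CPM in OA and 248 ± 5.08 CPM in WT and rose in DNL (log2 fold change 0.89, SE 0.0353, adjusted p = 4.77e-10) and in OA (log2 fold change 0.23, SE 0.0355, adjusted p = 0.000111). OGDH, a subunit of the oxoglutarate dehydrogenase, rose in DNL (log2 fold change 0.44, SE 0.0516, adjusted p = 1.01e-05) and fell in OA (log2 fold change -0.17, adjusted p = 0.016). IDH3A, the catalytic subunit of the NAD-linked isocitrate dehydrogenase, fell in DNL (log2 fold change -0.81, SE 0.162, adjusted p = 0.000925) and in OA (log2 fold change -0.93, SE 0.169, adjusted p = 0.000368). DLD, the shared dihydrolipoyl dehydrogenase, fell in DNL (log2 fold change -0.49, adjusted p = 5.76e-05), and SUCLG1, a succinyl-CoA ligase subunit, fell in OA (log2 fold change -0.45, adjusted p = 0.000276), as did MDH2, the mitochondrial malate dehydrogenase (-0.39, adjusted p = 0.000304).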
